A study of Mus musculus with 2 samples.

Results

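The genes described here are the 9 enzymes and partners that write, copy and remove CpG methylation in mouse cells: Dnmt1, Uhrf1, Dnmt3a, Dnmt3b, Dnmt3l, Tet1, Tet2, Tet3 and Tdg. They were taken as every gene probe whose RefSeq accession belonged to 1 of these symbols, which gave 18 probes for 9 of the 20823 genes named on the array. Methylated CpG is copied at replication by Dnmt1, which Uhrf1 brings to hemimethylated sites. New methylation is set by Dnmt3a and Dnmt3b with Dnmt3l, a partner with no catalytic activity of its own that is abundant in ES cells and germ cells. The Tet enzymes oxidise methylcytosine, and the glycosylase Tdg cuts out the most oxidised forms, which base excision repair then replaces with cytosine.

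The cells were Baf53a cKO ES cells, 1 clone derived from the mouse ES line E14, in which both Baf53a alleles carried small CRISPR/Cas9 deletions and growth depended on a Baf53a transgene that tetracycline (Tet) switches off. Baf53a (gene symbol Actl6a) and its neuronal counterpart Baf53b (Actl6b) are actin-related subunits of the BAF chromatin remodelling complex. The cells received an expression plasmid for Myc-tagged Baf53a or Myc-tagged Baf53b, were divided 48 h after transfection and were kept for 6 days in 1 μg/mL Tet with serum and LIF on gelatin, so both groups lacked endogenous Baf53a and had the transgene switched off. RNA of each was hybridised to 1 single-colour array, and the comparison asks how expression differs in Baf53b-expressing from Baf53a-expressing cells.

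With 1 array per group there was no replicate and no test. The errors available were that between spots of an array and that which the scanner software gave for each probe. Neither measures the spread between cultures and labellings. Each array held 39429 gene probes, of which 29247 were well above background on both arrays. No gene spot was saturated. The Actl6b probe read 3.40 in Baf53a-expressing cells, not well above background, and 119 in Baf53b-expressing cells, which is at least 14.5-fold higher, as the labels of the arrays have it. The Actl6a probe read 3806 and 3600, a difference of -0.04, and RNA of the edited alleles, the transgene and the plasmid cannot be told apart by it. All 8 markers of ES cells were measured on both arrays, with differences between -0.15 and 0.07. Sox2 alone was higher in Baf53b-expressing cells. The median of the list was -0.085, and its log2 summed level was 7.69 with Baf53a and 7.58 with Baf53b. Bright probes as a class were also lower, with a median of -0.063 in the brightest of 5 classes. All 6 markers of primitive endoderm, a cell type that ES cultures can give rise to, were higher in Baf53b-expressing cells, by 0.077 to 0.40, and their log2 summed level was 1.08 and 1.32. Of all measured probes 50.3% were lower, but dim probes were more often higher. Sox7, the least changed of these markers, was at 0.077, where probes of like brightness had a median of 0.054. Of 4 markers of primed epiblast the summed level was 1.23 and 1.21, with Fgf5 apart at 0.50. Of 6 fibroblast markers 4 were measured on both arrays, and the summed level of the list was 0.318 and 0.284. Thy1, the brightest of them, differed by -0.15, while Col1a1, Col1a2 and Dcn were higher with Baf53b, by 0.036, 0.22 and 0.37. Col3a1 stood clear of background on the Baf53b array alone and Postn on neither array. Oocyte markers summed to -0.54 and -0.55. Of the prospermatogonial markers Ddx4 and Dazl differed by 0.03 and 0.11, Nanos2 was well above background on neither array and Piwil4 had no probe. The part of these markers in the results that follow was not tested. In bulk RNA, fewer cells of a type and less RNA per cell cannot be told apart.

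The promoters of these genes differ in the very dinucleotide that their products act on, so 4 windows are shown, each the 250 bases before a transcription start in the RefSeq promoter table (GRCm38.p6), 5′ to 3′ on the strand of the gene, with CpG in capitals. The first and the last of 3 starts of Dnmt3a are given because that gene is known to make a long and a short protein from separate promoters. Dnmt3l and Tet2 are given as a window poor and a window rich in CpG.
Dnmt3a, first start, chr12:3806730-3806979, plus strand: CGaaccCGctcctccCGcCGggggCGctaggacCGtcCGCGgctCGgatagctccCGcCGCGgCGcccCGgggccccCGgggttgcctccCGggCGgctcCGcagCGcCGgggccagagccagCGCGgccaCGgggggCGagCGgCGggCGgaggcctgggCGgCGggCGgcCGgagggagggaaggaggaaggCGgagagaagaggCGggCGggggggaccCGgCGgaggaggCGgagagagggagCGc
Dnmt3a, last start, chr12:3891494-3891743, plus strand: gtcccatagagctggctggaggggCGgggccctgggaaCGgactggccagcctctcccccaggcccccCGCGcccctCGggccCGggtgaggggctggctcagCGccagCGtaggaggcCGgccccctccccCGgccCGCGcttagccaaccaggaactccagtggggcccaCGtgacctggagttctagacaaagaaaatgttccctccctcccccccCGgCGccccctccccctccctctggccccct
Dnmt3l, first start, chr10:78042037-78042286, plus strand: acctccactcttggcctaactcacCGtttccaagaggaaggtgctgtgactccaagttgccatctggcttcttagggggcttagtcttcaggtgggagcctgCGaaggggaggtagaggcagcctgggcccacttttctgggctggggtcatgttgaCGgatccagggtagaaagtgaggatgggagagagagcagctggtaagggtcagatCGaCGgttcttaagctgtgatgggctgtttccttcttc
Tet2, chr3:133544391-133544640, minus strand: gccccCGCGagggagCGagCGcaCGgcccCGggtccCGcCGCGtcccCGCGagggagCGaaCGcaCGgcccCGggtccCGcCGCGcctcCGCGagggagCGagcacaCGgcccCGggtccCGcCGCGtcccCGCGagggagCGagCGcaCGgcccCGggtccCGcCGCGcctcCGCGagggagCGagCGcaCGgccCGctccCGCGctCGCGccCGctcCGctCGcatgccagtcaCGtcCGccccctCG
The Tet2 window held 51 CpG, a number that 0.067% of all 32851 windows reached. The Dnmt3a windows held 38 and 15, and the Dnmt3l window held 5, against a median of 6 over all windows. Over the 16 windows of the 9 genes the count ran from 2 to 51, with a median of 16. The arrays measured RNA and not methylation, so the windows describe the genes and not their state in these cells.

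None of the 9 genes differed 2-fold between Baf53b- and Baf53a-expressing cells. All 18 probes were well above background on both arrays, and 0 of 18 were 2-fold apart, where 0.253% of all measured probes were (40 higher and 34 lower with Baf53b). Of those 74 probes, 56 were in the dimmest of 5 classes of brightness. Each of the 2 brightest classes held 0 of them and 5 of the 18 probes. Gene differences, on the log2 scale after each array was set to its 75th percentile and taken as Baf53b- minus Baf53a-expressing cells, ran from -0.09 for Dnmt1 to 0.10 for Tdg, with a median of 0.0019. Over all 16608 genes measured the median was -0.0032, and 91.1% lay within 0.3. Signals are quoted before this scaling (75th percentiles of 1161 and 1128), so a signal can fall where its difference is above 0. Of the 18 probes, 6 were lower and 12 higher in Baf53b-expressing cells, where 50.3% of all probes were lower. Every probe of these genes lay within the central 95% of probes of like brightness, and 10 of 18 lay within the central 50%.

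**Figure D1:**
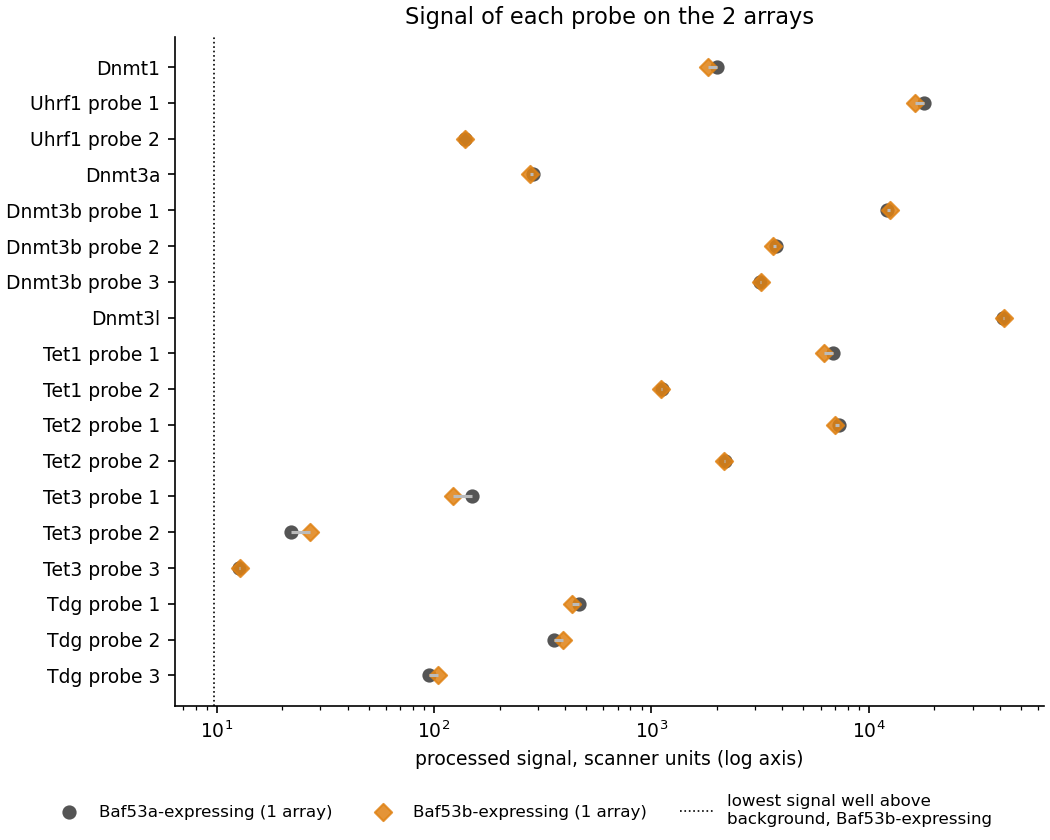
Processed signal of each probe (log axis, scanner units) in Baf53a-expressing cells (grey circles) and Baf53b-expressing cells (orange diamonds), 1 array each, with no error bars since there is no replicate. The 2 symbols of a probe nearly coincide for most probes, and the widest gaps are those of Tet3 probes 1 and 2. The dotted line is the lowest signal well above background on the array of Baf53b-expressing cells.

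Dnmt1 and Uhrf1, the maintenance genes, differed by far less than 2-fold. Dnmt1 was slightly lower in Baf53b-expressing cells. The probes of Uhrf1 went opposite ways, though both lay below the median of probes of like brightness. Dnmt1, read by 1 probe (NM_010066), had a signal of 2004 with Baf53a and 1825 with Baf53b, a difference of -0.09 or 0.938-fold. The spot SD of a difference at that brightness was 0.066, so Dnmt1 lay beyond 1 but within 2 spot SD. It lay within the wider error that the scanner software gave, 0.204. Uhrf1, the reader of hemimethylated DNA, had a bright probe (NM_010931) with 17856 and 16291, a difference of -0.09. Its second probe (NM_001111079) read 140 and 138, a difference of 0.03. The mean over both was -0.03, within the spot SD of that mean, 0.066. Probes as bright as the Dnmt1 probe were themselves lower in most cases, with a median of -0.019, and 48.7% of them were at least as far from that median as Dnmt1. Those as bright as the first Uhrf1 probe had a median of -0.063, and 75.3% were at least as far from it. Those as bright as the second Uhrf1 probe had a median of 0.054, and 88.8% were at least as far from it. Relative to these medians the Uhrf1 probes stood at -0.027 and -0.026. Dnmt1 and Uhrf1 were lower under all 11 processing settings tried, Dnmt1 by -0.14 to -0.065 and Uhrf1 by -0.091 to -0.029. Several of these settings could not move the 1 probe of Dnmt1.

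Dnmt3b and Dnmt3l were slightly higher in Baf53b-expressing cells and Dnmt3a was level, except that Dnmt3b was at -0.0007 when each array was centred on its median. Dnmt3a had 1 probe (NM_007872), with 285 and 277, and a difference of 0.0019. Which of the long and short forms the probe reads was not determined. Dnmt3b, the main de novo enzyme of early embryonic cells, was read by 3 probes (NM_001003961). The first gave 12158 and 12544, the second 3719 and 3639, and the third 3151 and 3177. Their differences of 0.09, 0.01 and 0.05 had a mean of 0.05, with a spot SD of the mean of 0.037. Dnmt3l, the cofactor, gave 41198 and 41904 from its 1 probe (NM_019448), a difference of 0.07 or 1.05-fold, against a spot SD of 0.059 and a scanner software error of 0.204. None of the 5 probes of this group was lower after scaling, though the unscaled signals of Dnmt3a and of the second Dnmt3b probe fell. Relative to probes of like brightness Dnmt3a was lower, at -0.017. Bright probes as a class were lower in Baf53b-expressing cells, so relative to probes of like brightness the first Dnmt3b probe stood 0.15 higher and the Dnmt3l probe 0.13 higher, and 11.9% and 16.5% of probes in that class were at least as far from their median. Dnmt3l was higher under all 11 settings, by 0.015 to 0.13, though several of them could not move its 1 probe. Dnmt3b was lower under 1 of 11 settings, and Dnmt3a changed sign, being lower under 3 of 10.

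**Figure D2:**
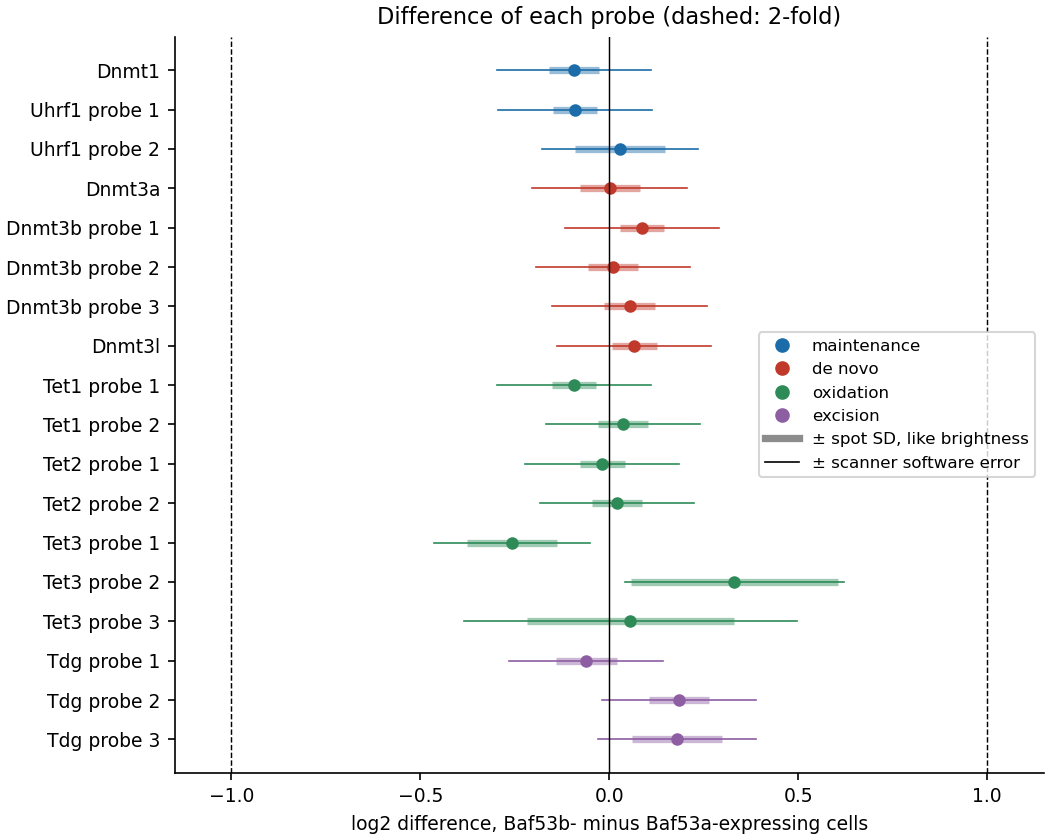
Difference of each probe in log2 units, Baf53b- minus Baf53a-expressing cells. Thick bars are 1 spot SD of a difference for probes of that brightness, which hold spot noise only. Thin lines are the error that the scanner software gave. All 18 points lie between -0.26 and 0.33, inside the dashed lines at 2-fold, and Tet3 spans the widest range.

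The Tet genes, which start demethylation, differed little and not in one direction. Tet1 (NM_001253857) gave 6827 and 6216 on its first probe and 1112 and 1108 on its second, differences of -0.09 and 0.04. Tet2 (NM_001040400) gave 7305 and 7007, and 2177 and 2144, differences of -0.02 and 0.02. The means were -0.03 for Tet1 and 0.0007 for Tet2, both within the spot SD of a mean of 0.044. Relative to the median of probes of like brightness, the Tet1 probes stood at -0.030 and 0.056 and the Tet2 probes at 0.045 and 0.039. Tet1 was lower under 10 of 11 settings and Tet2 under 3 of 11.

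Tet3 gave the widest spread of any of these genes. Its 3 probes (NM_183138) read 150 and 122, 22.1 and 27.0, and 12.7 and 12.8 in Baf53a- and Baf53b-expressing cells. The first was lower by -0.26, the second higher by 0.33 and the third differed by 0.06, and the mean was 0.04 with a spot SD of 0.135. These were dim probes, and the first lay beyond 2 spot SD of its brightness class. The first and the second were also the only 2 of the 18 probes to lie beyond the error that the scanner software gave for them, 0.206 and 0.290. Among the 584 genes with 3 measured probes 4.97% had a range as wide as that of Tet3, which was 0.588. The sign of Tet3 changed with the processing: it was lower under 4 of 10 settings, at -0.26 from its brightest probe, and with all probes kept at -0.057 after quantile normalization, -0.017 after cyclic loess and -0.0077 with each array centred on its median. The probes of Tet3 thus differed among themselves by more than the gene differed between the arrays.

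Tdg, the glycosylase that removes oxidised methylcytosine, had the highest difference of the 9 genes at 0.10, or 1.07-fold. Its 3 probes (NM_172552) gave 464 and 432, 354 and 391, and 94.6 and 104. The first was lower by -0.06 and the other two were each higher by 0.18, and the spot SD of their mean was 0.055. The second probe lay beyond 2 spot SD but within its scanner software error of 0.204, and 23.8% of probes of its brightness were at least as far from their median. The range among its probes was 0.245, and 31.3% of genes with 3 probes had one as wide. Taken from its brightest probe Tdg was -0.06.

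Across all probes the difference fell with brightness, and the enzymes were read against that trend. With all measured probes ranked by brightness and cut into 5 classes of like number, from the dimmest to the brightest class the median difference went from 0.098 to -0.063, and the share of lower probes from 35.4% to 75.8%. The spot SD narrowed from 0.274 to 0.059. Relative to the median of its own class, 8 of the 18 probes were lower and 10 higher, with a median of 0.034. By role and without that subtraction, 2 of 3 probes of the maintenance genes were lower, 0 of 5 of the de novo genes, 3 of 7 of the Tet genes and 1 of 3 of Tdg. Relative to its class, the sign turned to lower for the second Uhrf1 probe (-0.026), Dnmt3a (-0.017) and the third Tet3 probe (-0.042). It turned to higher for the first Tet2 probe (0.045).

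**Figure D3:**
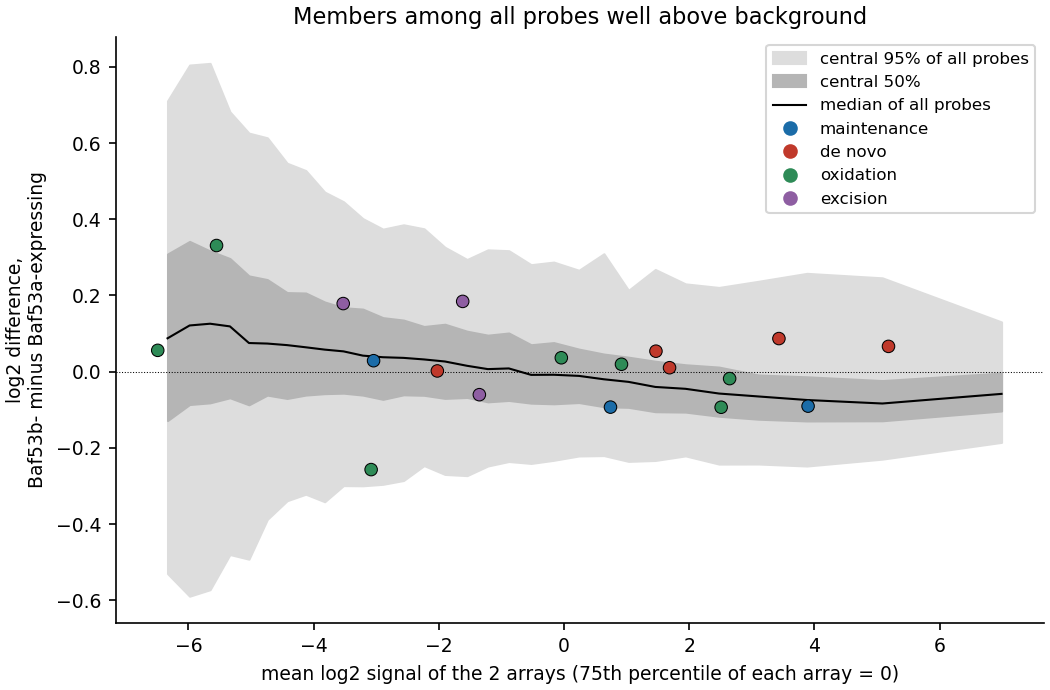
Difference of each probe in log2 units (Baf53b- minus Baf53a-expressing cells) against its mean brightness, with bands for the central 50% and 95% of all measured probes of like brightness. Points are the 18 probes, coloured by role, and all lie inside the central 95% of their brightness class (the dimmest Tet3 probe lies left of where the band is drawn), while the band itself drifts from above 0 at dim probes to below 0 at bright ones.

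Processing moved these small differences by about their own size. The plot of settings shows each gene under the ways of treating the arrays that measured it: 11 for Dnmt1, Uhrf1, Dnmt3b, Dnmt3l, Tet1 and Tet2, and 10 for Dnmt3a, Tet3 and Tdg, which the stricter filter on dim probes left out. None was 2-fold apart where measured, and the median over the genes ran from -0.060 to 0.048. The split of all probes at 2-fold was 40 higher and 34 lower here, and 32 and 53 after quantile normalization. Directions held under all 11 settings for Dnmt1, Uhrf1 and Dnmt3l. All settings reprocess the same 2 arrays. Dnmt1 and Dnmt3l have 1 probe each, so the filters, the detection flag and the choice of brightest probe could not change their values.

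**Figure D4:**
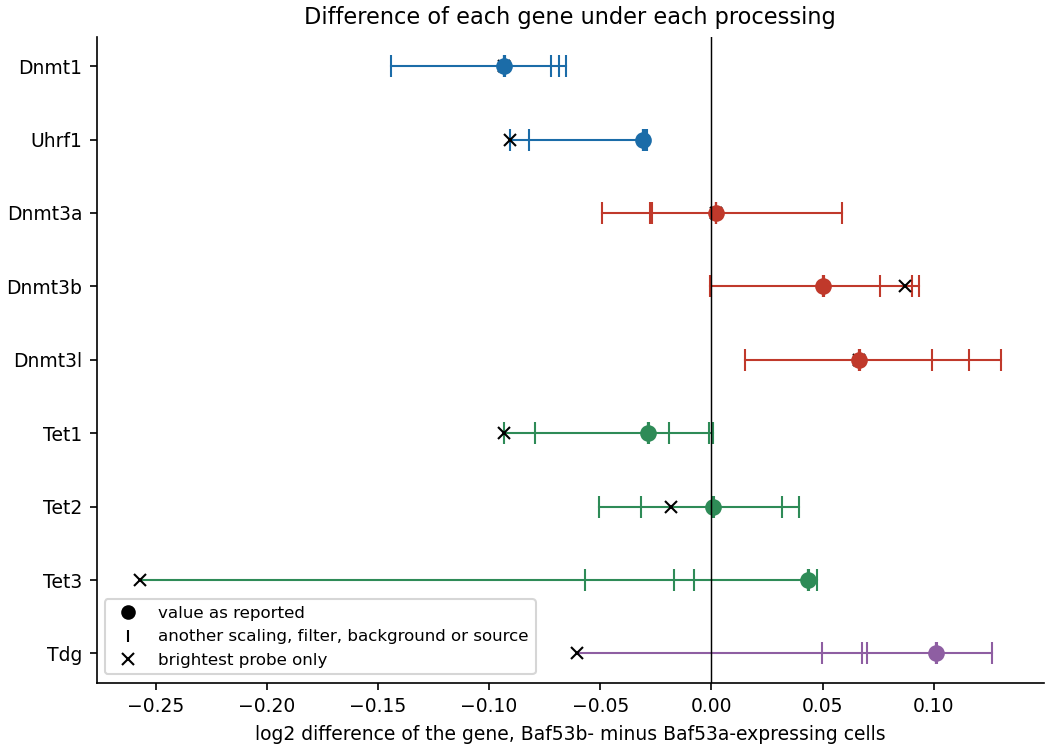
Gene difference in log2 units (Baf53b- minus Baf53a-expressing cells) for each of the 9 genes under the setting used here and under each alternative that measured the gene, with circles for the setting used here, ticks for the others and crosses for the brightest probe alone. Dnmt1 and Uhrf1 stay below 0 and Dnmt3l above it, and Tet3 spreads from -0.26 to 0.05. Settings that only filter or choose probes could not move Dnmt1 and Dnmt3l.

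The genes that work with these enzymes were read from 9 lists, with Parp1 and Mbd4 each in a pair of them and 88 genes in all, of which 87 had a probe and 85 were measured on both arrays. None was 2-fold apart, where 0.253% of all measured probes were, most of them dim. In Baf53b-expressing cells 38 were higher and 47 lower, where 50.3% of all measured probes were lower. The median was -0.018, and 77 lay within 0.2. The counts of the single lists below are to be read beside the same shares. Among 8 partners of Dnmt1 and Uhrf1, 3 were higher and 5 lower, with a median of -0.025. Hells, a remodelling helicase needed for DNA methylation, was lowest at -0.19, and Dppa3, which keeps Uhrf1 from chromatin, highest at 0.21. Among 17 recruiters and regulators of the de novo enzymes, 8 were higher and 9 lower, with a median of -0.014. Zfp57, a zinc finger protein that protects imprinted methylation, stood lowest of all the list genes at -0.39, and both its probes were lower, at -0.51 and -0.28. Nsd2, a histone H3 methyltransferase, was highest at 0.10.

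Of 10 partners and cofactor suppliers of the Tet enzymes 9 were measured, 4 higher and 5 lower, with a median of -0.033. Idh3a was lowest at -0.16 and Idh1 highest at 0.13, both isocitrate dehydrogenases. Cxxc4, a partner of Tet2, had 1 of 3 probes clear of background, on the Baf53a array alone, with signals of 12.9 and 9.51. After scaling it was 1.28-fold above the lowest signal that passed on the Baf53b array, 9.75. Both signals were near that floor, and the dimmest class had a spot SD of a difference of 0.274. Of 18 genes of base excision repair, 7 were higher and 11 lower, with a median of -0.036. Mutyh, a glycosylase that removes mispaired adenine, was lowest at -0.25, and Neil1, a glycosylase of oxidised bases, highest at 0.13. The Neil1 probe was in the dimmest class, whose own median was 0.098. The 4 cytosine deaminases had a median of -0.12, with 1 higher and 3 lower. Apobec1 was lowest at -0.23 and Apobec2 highest at 0.26.

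Of the 8 readers of methylated CpG, 5 were higher and 3 lower, with a median of 0.020. Mbd4, which is also a glycosylase, was lowest at -0.18, and Zbtb38 highest at 0.32. Of 6 readers of unmethylated CpG 5 had a probe, 3 higher and 2 lower, with a median of 0.038, from Kdm2a at -0.14 to Cxxc1 at 0.099, and Kmt2a had none. Of 18 genes that supply the methyl donor S-adenosylmethionine 17 were measured, 7 higher and 10 lower, with a median of -0.040. Bhmt, which remethylates homocysteine, was highest of all the list genes at 0.45, with probes from 0.39 to 0.52. Mat1a was well above background on neither array. Trdmt1, a methyltransferase of the Dnmt fold that acts on RNA, differed by -0.12.

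**Figure D5:**
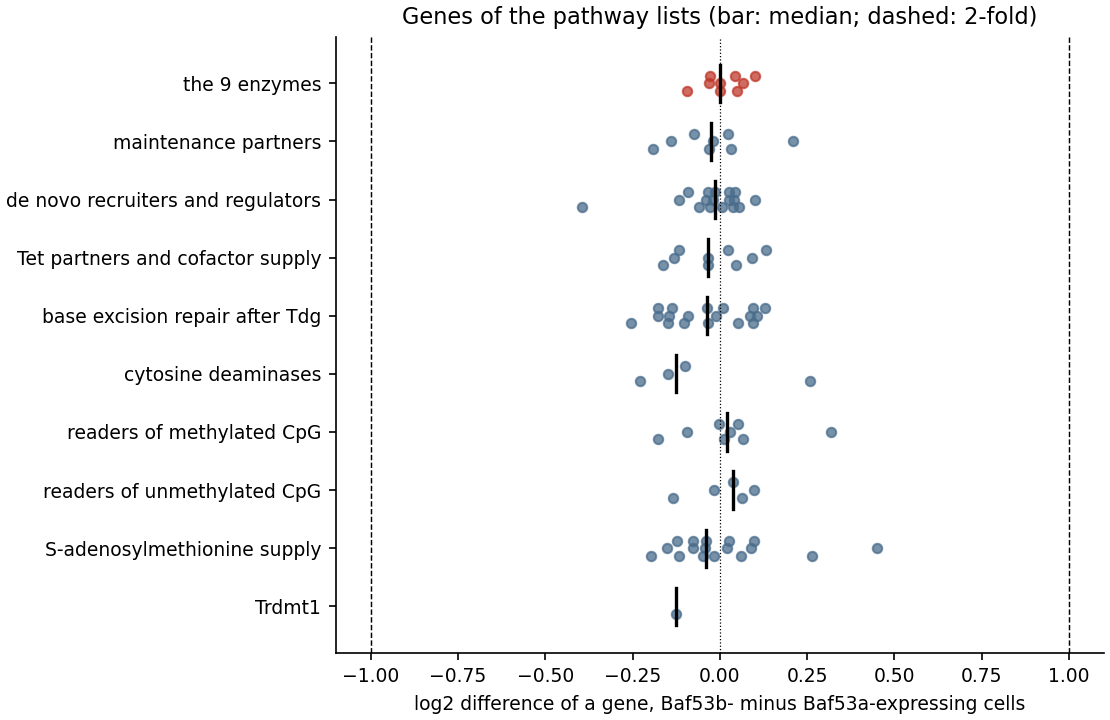
Difference of each gene in log2 units (Baf53b- minus Baf53a-expressing cells) by list, 1 point per gene measured on both arrays, with the 9 enzymes in red on top and the median of each list as a bar. No point reaches 2-fold, and Bhmt at 0.45 and Zfp57 at -0.39 lie farthest from 0.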

How the data were processed

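RNA of 1 sample of Baf53a-expressing and 1 of Baf53b-expressing cells was measured on 1 array each. The authors extracted the images with Agilent Feature Extraction 11.0.1.1 and deposited the processed intensity of every spot, with background subtracted. The array design carries mm9 annotation. A value table was deposited too, by the authors, of 30488 probes, each a ratio of the processed signal to 1 number per array (1160 and 1126).

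Control spots and outlier spots were left out, replicate spots were averaged as log2 intensity, and each array was set to its 75th percentile (1161 and 1128). A probe counted as well above background where the flag was set on 50% or more of its spots, and a gene was the mean of its probes that passed on both arrays. The lowest signals that passed were 8.45 and 9.75. The number of arrays, 1 per group, limits the precision and allows no test, so values are described against a 2-fold threshold. The spot SD of a difference came from probes printed as 10 spots, in 5 classes of brightness. Names came from RefSeq accessions, looked up in a table of assembly GRCm38.p6, used for names only. Promoter windows came from RefSeq's promoter table, of which the 250 bases before each start were used. Normexp was run on the median signal, with an offset of 50. Calculations used Python 3.11.15, numpy 2.4.6, pandas 2.3.3, R 4.3.3 and limma 3.58.1, and were tested on simulated data.

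The genes named are the 9 enzymes with every probe, the highest and lowest gene of each list, any list gene 2-fold apart or well above background on 1 array only, and Actl6a and Actl6b. Other genes named, such as repair glycosylases, were chosen after their values were seen. The genes and lists were chosen with earlier results of these data known. Some list genes that this rule would name are not reported here. Protein sequences were not used here.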

Additional observations from a re-analysis of the deposited data

How the results depend on the processing

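None of the enzymes was 2-fold apart under any of the 10 alternatives, of which the stricter filter on dim probes measured 6 of the 9 and left out Dnmt3a, Tet3 and Tdg. The count of all probes 2-fold apart, 74 here, was 2 with normexp on the median signal, 1337 with no filter on dim probes, 754 with the weaker detection flag and 0 with the stricter filter. The median over the enzymes, 0.0019 here, was -0.0604 when each gene was read from its brightest probe. The median of the cytosine deaminases, -0.12 here, was -0.1881 after quantile normalization, -0.0562 with normexp and -0.2451 with the stricter filter, and Trdmt1, -0.12 here, was -0.0446 with normexp. The cause of these shifts was not tested. Of 87 values of single enzymes 77 moved by less than the spot SD and 10 by more, and of 81 list medians 77 and 4. Differences of dim probes, Tet3 among them, are limited by their signal over background. No paired analysis was possible because each group had 1 array.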

Other observations

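The DNA glycosylases of the base excision repair list, grouped after their values were seen, were mostly lower in Baf53b-expressing cells. Of 9 glycosylases, Tdg not among them, 7 were lower, with a median of -0.15, where 50.3% of all measured probes were lower. Of their 9 probes 7 lay below the median of probes of like brightness, and only 4 differed by more than 2 spot SD. Mutyh differed by -0.25, Mbd4, which removes thymine from mismatched CpG, by -0.18, and Ung, which removes uracil, by -0.18. Ogg1 and Smug1 differed by -0.15 each, Neil2 by -0.14 and Nthl1 by -0.092. Neil1 and Neil3 were higher, at 0.13 and 0.095. The Neil1 probe was in the dimmest class of all probes, whose own median was 0.098 with a spot SD of 0.274. Tdg, at 0.10, was also higher, though its brightest probe was at -0.06. None was 2-fold apart, and with 1 array per group the pattern was not tested.

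Ahcy, which clears the S-adenosylhomocysteine left after methylation, was higher in Baf53b-expressing cells on both its probes, at 0.20 and 0.33. It is named after its value was seen.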
